A study of Mus musculus with 15 samples.

Results

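The genes described here carry haem and iron through macrophages: Slc48a1, Hmox1, Blvra, Blvrb, Slc40a1, Slc11a1, Slc11a2, Tfrc, Ftl1 and Fth1. They were chosen by name as a set on haem and iron recycling, and their probes were found through the RefSeq accession of each probe. All 10 had at least 1 probe, and all 10 were among the 13390 genes tested, out of 20145 genes named on the array. RNA came from liver macrophages that were sorted for high F4/80, a surface protein of tissue macrophages, and then by CD11c, an integrin found on dendritic cells and on some activated macrophages. The 3 groups had 5 one-colour arrays each. The wildtype group (WT_SD) was CD11c-negative macrophages from normal livers of wildtype mice on standard diet. The other groups were the CD11c-negative and the CD11c-positive macrophages of mice without the melanocortin 4 receptor (MC4R-KO), a receptor of the brain that restrains appetite, after 20 weeks of Western diet started at 8 weeks of age, whose livers are labelled as having non-alcoholic steatohepatitis (NASH). All mice were male, and each RNA sample pooled the macrophages of 7 to 9 mice. No age for wildtype animals was found in the labels. Genotype and diet differ together between wildtype and MC4R-KO, so that their parts in a difference cannot be told apart, and no CD11c-positive group of wildtype livers was measured here.

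Macrophages of the liver and spleen take up worn red cells and haemoglobin and recover the iron. Haem leaves the phagolysosome through SLC48A1 (HRG1), and haem oxygenase 1 (HMOX1) opens its ring to give biliverdin, carbon monoxide and ferrous iron. The biliverdin reductase BLVRA turns this biliverdin into bilirubin, and BLVRB reduces other biliverdin isomers and flavins. The iron is stored in ferritin, a shell of light (Ftl1) and heavy (Fth1) chains, or leaves the cell through ferroportin (SLC40A1), the exporter that the liver hormone hepcidin removes from the surface. Iron that arrives on transferrin enters through the transferrin receptor (Tfrc) and crosses the endosome membrane through SLC11A2, and SLC11A1 moves divalent metals out of the phagosome. Iron regulatory proteins stabilise the Tfrc mRNA and hold back the translation of ferritin mRNA when iron is scarce, and an array sees only the mRNA.

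Values are log2 signals minus the 75th percentile of the probe signals of the array, so that 0 is the level of that percentile. A gene was said to have risen or fallen when limma gave a Benjamini-Hochberg adjusted p under 0.05 over all genes tested. The 75th percentile ran from 358.6 to 562.4 signal units over the 15 arrays and 45.8% to 58.0% of spots were well above background. Nothing in the labels says whether the 5 samples of a group came from separate sorts, so the p-values measure only sample-to-sample spread, and that spread may be technical. The median gene had an SD of 0.0751 in wildtype, 0.0888 in MC4R-KO CD11c-negative and 0.07 in MC4R-KO CD11c-positive samples. Itgax, which encodes CD11c, had means of 4.21, 5.93 and 7.29 in that order, and Adgre1, which encodes F4/80, had means of 7.34, 7.74 and 7.31. The sort for CD11c is seen in Itgax, although the MC4R-KO CD11c-negative cells were above the wildtype cells too. Clec4f, a marker of resident Kupffer cells, had means of 9.30, 8.08 and 7.29. The single Mc4r probe was not well above background on any array and checks nothing about the deletion.

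In both MC4R-KO groups the mRNAs of 3 genes stood at least 2-fold lower than in wildtype. These were the haem transporter Slc48a1, the iron exporter Slc40a1 and the transferrin receptor Tfrc. Tfrc lay near that limit, and with normexp background correction it had -0.80 and -0.90 and was short of it. Hmox1 and Blvrb were lower as well, Blvra and Slc11a2 were higher, and the ferritin chains and Slc11a1 moved little. Between MC4R-KO CD11c-negative cells and wildtype, all 10 genes passed the test, 5 higher and 5 lower. Of all genes tested 76.8% passed in this comparison, 48.3% higher and 28.5% lower, so that passing alone does not set the 10 apart. Slc48a1, Slc40a1 and Tfrc were at least 2-fold lower, against 6.22% of all genes, and the arrays did not overlap for any of the 10, against 64.1% of all genes. Between MC4R-KO CD11c-positive cells and wildtype, 9 genes passed, 3 higher and 6 lower, against 77.6% of all genes, 51.4% higher and 26.3% lower. The same 3 genes were at least 2-fold lower, against 7.02%, and 9 of the 10 did not overlap, against 69.3%. Between the MC4R-KO CD11c-positive and CD11c-negative cells, 6 genes passed, 1 higher and 5 lower, against 53.1%, 29.9% higher and 23.2% lower. None of the 10 was 2-fold lower there, against 1.19% of all genes, and 6 did not overlap, against 39.5%. The median difference of the 10 genes was -0.01, -0.43 and -0.16 in these 3 comparisons, beside 0.13, 0.16 and 0.01 for all genes tested. The comparisons share their groups and are not independent of each other. RNA of whole sorted samples cannot tell fewer cells of a kind from less RNA per cell, and this holds for every difference given here.

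**Figure D1:**
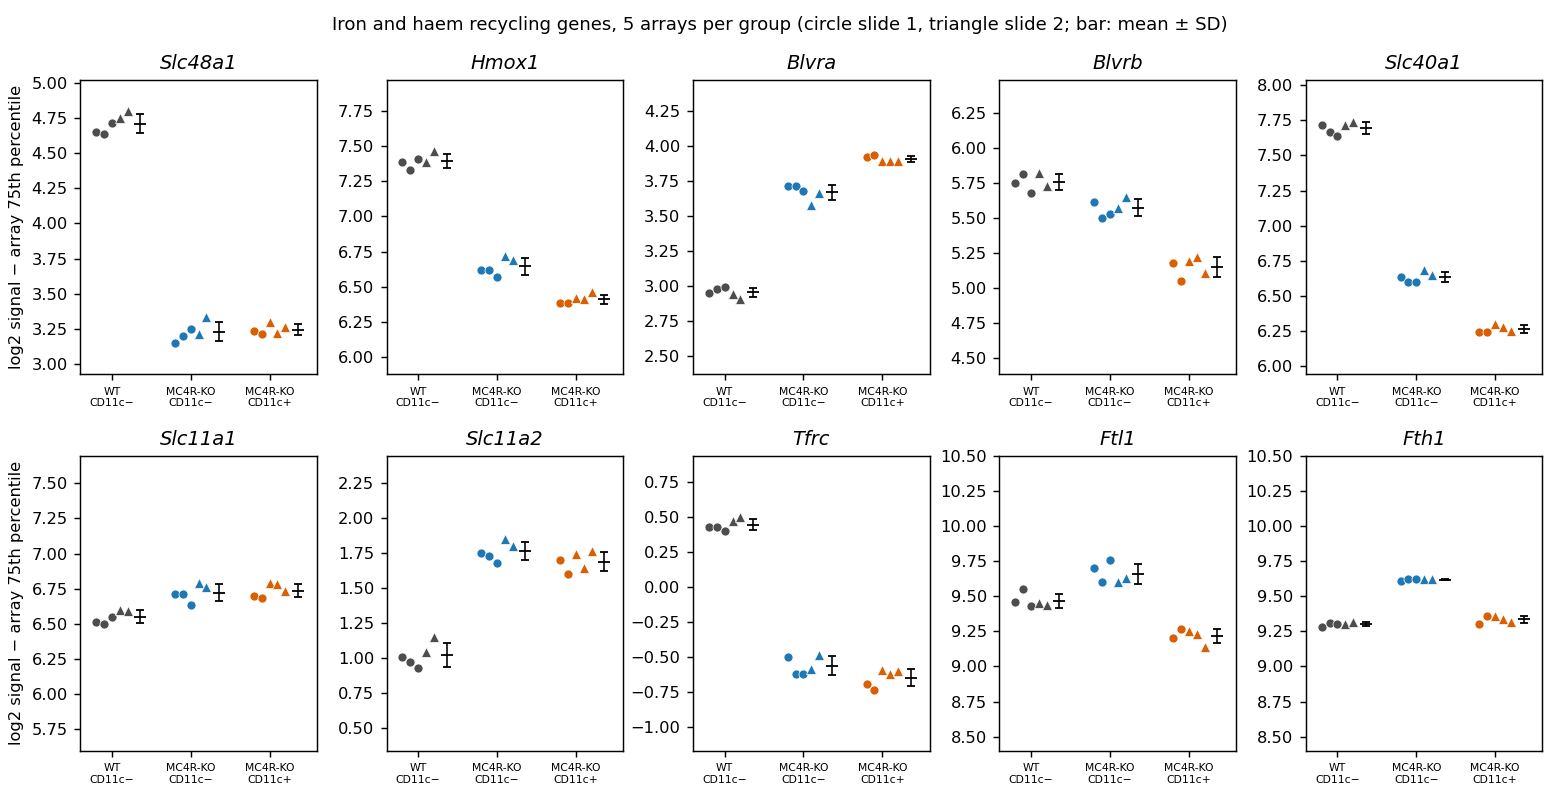
Scaled log2 signal, with 0 at the array's 75th percentile (y axis, each panel covering the same span) for the 10 genes, with a point for each of the 5 arrays of the wildtype (WT) and MC4R-KO groups, circles for slide 1 and triangles for slide 2, and mean ± SD bars. Slc48a1, Slc40a1 and Tfrc stand lower in both MC4R-KO groups, Blvra and Slc11a2 stand higher, and Fth1 is highest in MC4R-KO CD11c-negative samples with this scaling but not with quantile normalization.

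The mRNA of the haem transporter Slc48a1 had the largest fall of the 10 genes against wildtype in both MC4R-KO groups with the percentile scaling. Slc48a1 read 4.65, 4.64, 4.72, 4.75 and 4.80 on wildtype arrays 1 to 5. The MC4R-KO CD11c-negative arrays read 3.15, 3.20, 3.25, 3.21 and 3.33, and the CD11c-positive arrays 3.23, 3.21, 3.30, 3.22 and 3.26. Every MC4R-KO array lay below every wildtype array, while the MC4R-KO groups covered the same range. Against wildtype, Slc48a1 fell by 1.48 ± 0.038 (SE) in CD11c-negative cells, 2.79-fold (adjusted p = 8.22e-14), and by 1.47 ± 0.038 in CD11c-positive cells, 2.77-fold (adjusted p = 6.61e-14). The difference between the MC4R-KO groups was 0.01, with a 95% interval of -0.07 to 0.09 (adjusted p = 0.8).

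Hmox1, the enzyme that opens the haem ring, declined in the order wildtype, MC4R-KO CD11c-negative, MC4R-KO CD11c-positive. It read 7.39, 7.33, 7.41, 7.39 and 7.47 in wildtype samples. In MC4R-KO it read 6.62, 6.62, 6.57, 6.72 and 6.69 in CD11c-negative samples and 6.38, 6.38, 6.42, 6.41 and 6.46 in CD11c-positive samples. None of the 3 groups overlapped another. Hmox1 fell by 0.76 ± 0.033 in MC4R-KO CD11c-negative cells against wildtype (1.69-fold, adjusted p = 3.63e-11) and by a further 0.23 ± 0.033 in CD11c-positive cells (1.17-fold, adjusted p = 4.07e-05). From wildtype to CD11c-positive cells the fall was 1.98-fold (adjusted p = 1.35e-12).

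The mRNAs of the biliverdin reductases went opposite ways. Blvra, the main biliverdin reductase of the adult, read 2.95, 2.98, 2.99, 2.94 and 2.91 on the wildtype arrays. Its values were 3.71, 3.71, 3.68, 3.58 and 3.66 in MC4R-KO CD11c-negative samples and 3.92, 3.93, 3.89, 3.89 and 3.89 in CD11c-positive samples. The groups did not overlap, and the CD11c-positive samples were the highest. Blvra rose by 0.72 ± 0.027 from wildtype to MC4R-KO CD11c-negative cells (1.64-fold, adjusted p = 7.32e-12) and by 0.23 ± 0.027 from these to CD11c-positive cells (1.18-fold, adjusted p = 6.07e-06), which is 1.93-fold from wildtype (adjusted p = 2.36e-13). Blvrb, which reduces other biliverdin isomers and flavins, read 5.75, 5.81, 5.68, 5.82 and 5.73 in wildtype samples. In MC4R-KO it read 5.61, 5.50, 5.53, 5.57 and 5.65 in CD11c-negative samples and 5.18, 5.05, 5.19, 5.22 and 5.11 in CD11c-positive samples. The lowest wildtype array was just above the highest CD11c-negative array, and the CD11c-positive arrays lay apart below. Blvrb fell by 0.19 ± 0.041 in MC4R-KO CD11c-negative cells against wildtype (adjusted p = 0.000809) and by 0.42 ± 0.041 in CD11c-positive against CD11c-negative cells (1.34-fold, adjusted p = 8.13e-07).

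The sequence before the start of Blvra is shown because this gene rose in both MC4R-KO groups while Hmox1 fell. RefSeq windows (GRCm38.p6, 250 bases before an annotated start) were found for 6 of the 10 genes, in 9 windows. None was found for Hmox1, Slc40a1, Slc48a1 and Slc11a2, so these genes were not searched. The Blvra window lies on the + strand at chr2:127070407-127070656. Capitals mark matches to the core of the antioxidant response element (TGACNNNGC, either strand) and to the CCAAT box (CCAAT, either strand).
Blvra: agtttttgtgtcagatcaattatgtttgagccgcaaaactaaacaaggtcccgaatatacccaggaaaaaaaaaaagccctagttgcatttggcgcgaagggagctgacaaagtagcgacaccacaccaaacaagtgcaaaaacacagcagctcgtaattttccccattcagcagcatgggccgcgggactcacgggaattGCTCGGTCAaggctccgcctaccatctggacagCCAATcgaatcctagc
The antioxidant core matched on the opposite strand, as GCTCGGTCA, 49 bases before the start, and a CCAAT box began 16 bases before it. Of 32851 mouse windows of this length, 10.2% hold the antioxidant core and 33.8% a CCAAT box. A match of letters is a description and not evidence of binding.

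The mRNA of the iron exporter fell in a graded way. Slc40a1, which encodes ferroportin, read 7.72, 7.67, 7.64, 7.72 and 7.74 in wildtype samples. The MC4R-KO CD11c-negative samples gave 6.63, 6.60, 6.60, 6.68 and 6.65, and the CD11c-positive samples gave 6.24, 6.24, 6.30, 6.28 and 6.25. No group overlapped another, and the spread inside each group was at most 0.043 (SD, n = 5). Slc40a1 fell by 1.07 ± 0.027 (2.10-fold, adjusted p = 6.5e-14) from wildtype to MC4R-KO CD11c-negative cells and by 0.37 ± 0.027 (1.29-fold, adjusted p = 4.19e-08) from these to CD11c-positive cells. Over both steps the fall was 2.70-fold (adjusted p = 1.78e-15).

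The mRNAs of the metal transporters of the phagosome and endosome differed from wildtype in the same way in both MC4R-KO groups. Slc11a2 (DMT1), which passes ferrous iron out of the endosome, ranged from 0.93 to 1.15 in wildtype, 1.68 to 1.85 in MC4R-KO CD11c-negative and 1.60 to 1.76 in CD11c-positive samples. The MC4R-KO arrays were all above the wildtype arrays and overlapped each other. Slc11a2 rose 1.68-fold in CD11c-negative cells (0.75 ± 0.046, adjusted p = 1.51e-09) and 1.59-fold in CD11c-positive cells (0.67 ± 0.046, adjusted p = 4.42e-09). The difference between the MC4R-KO groups was -0.08, with a 95% interval of -0.17 to 0.02 (adjusted p = 0.176), and it passed with -0.10 when slide was a block. Slc11a1 (NRAMP1), the phagosome transporter that shapes resistance to intracellular bacteria in mice, ranged from 6.50 to 6.60 in wildtype, 6.63 to 6.79 in MC4R-KO CD11c-negative and 6.68 to 6.79 in CD11c-positive samples. The wildtype arrays were the lowest by a small gap. The rises were 1.12-fold (adjusted p = 0.000513) and 1.13-fold (adjusted p = 0.000249), and both turned into falls with quantile normalization, as given further on.

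The mRNA of the transferrin receptor, through which most cells take up iron, fell in both MC4R-KO groups. Tfrc read 0.43, 0.43, 0.40, 0.47 and 0.50 in wildtype samples. It read -0.50, -0.62, -0.62, -0.58 and -0.48 in MC4R-KO CD11c-negative samples and -0.69, -0.73, -0.59, -0.62 and -0.60 in CD11c-positive samples. Both MC4R-KO groups lay below the wildtype arrays and overlapped each other. Tfrc fell by 1.00 ± 0.037 in CD11c-negative cells (2.01-fold, adjusted p = 5.01e-12) and by 1.09 ± 0.037 in CD11c-positive cells (2.13-fold, adjusted p = 1.47e-12). Between the MC4R-KO groups the difference was -0.09, with a 95% interval of -0.17 to -0.01 and an adjusted p of 0.0598, a call that 9 of the 28 alternatives changed. It passed with -0.10 when CD11c-negative replicate 2, CD11c-negative replicate 3 or CD11c-positive replicate 3 was left out. Dividing cells are known to carry more of the receptor. Of 13 proliferation markers, 10 rose and 1 fell in MC4R-KO CD11c-negative cells against wildtype, and all 13 rose in CD11c-positive cells against wildtype. Of all genes 48.3% rose and 28.5% fell in the first of these comparisons, and 51.4% rose in the other. Mki67 was the marker that fell, with means of 3.50, 3.21 and 4.07 in wildtype, CD11c-negative and CD11c-positive samples. The part of proliferation in the Tfrc differences was not tested.

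The windows before the Tfrc starts are shown because Tfrc was the uptake gene that fell and its transcription is a textbook target of hypoxia signalling. The window before the upstream start lies at chr16:32608646-32608895 on the + strand, with a CCAAT box in capitals that begins 124 bases before that start.
Tfrc: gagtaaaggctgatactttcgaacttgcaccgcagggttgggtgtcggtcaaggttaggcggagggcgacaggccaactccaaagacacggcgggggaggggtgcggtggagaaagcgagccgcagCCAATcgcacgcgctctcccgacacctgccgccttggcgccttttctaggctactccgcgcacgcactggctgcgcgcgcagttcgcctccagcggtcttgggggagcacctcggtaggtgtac
A second annotated start lies downstream, and a stretch of 27 bases at chr16:32608891-32608917, which spans the upstream start, holds a hypoxia response element core (ACGTGC) and a cyclic AMP response element core (TGACGT), both in capitals.
Tfrc stretch: tgtACGTGCggaaggaagTGACGTaga
These cores began 228 and 213 bases before the downstream start and are present in 4.9% and 6.5% of the 32851 windows. In the same windows an E-box (CACGTG, 6.0% of all windows) was matched in none of the 6 genes, and the purine-rich box bound by PU.1 and SPIC (GAGGAA, 23.3%) was matched in Slc11a1, 152 bases before its start. No match says only that these letters are not in these windows. Hmox1, Slc40a1, Slc48a1 and Slc11a2 had no window and were not searched for any of these letters.

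Ferritin mRNA differed little between groups, and most of its differences depended on the scaling. Fth1, the heavy chain that oxidises iron as it enters the shell, read 9.28, 9.31, 9.30, 9.30 and 9.32 in wildtype samples. The MC4R-KO CD11c-negative samples read 9.61, 9.62, 9.62, 9.62 and 9.62, and the CD11c-positive samples 9.30, 9.36, 9.36, 9.34 and 9.32. The CD11c-negative samples stood above the rest, and the CD11c-positive samples overlapped wildtype. Fth1 was 1.24-fold higher in MC4R-KO CD11c-negative cells than in wildtype (0.32 ± 0.020, adjusted p = 1.75e-09) and 1.22-fold lower in CD11c-positive than in CD11c-negative cells (adjusted p = 2.62e-08), whereas quantile normalization gave 0.04 and 0.05 and passed neither. Between CD11c-positive cells and wildtype the Fth1 difference was 0.03, with a 95% interval of -0.01 to 0.08 (adjusted p = 0.13), and quantile normalization gave 0.09 (adjusted p = 0.0174). Ftl1, the light chain that helps the iron core to form, read 9.46, 9.55, 9.43, 9.45 and 9.44 in wildtype samples. It read 9.70, 9.60, 9.76, 9.60 and 9.63 in MC4R-KO CD11c-negative samples and 9.20, 9.27, 9.25, 9.23 and 9.14 in CD11c-positive samples. The 3 groups did not overlap, with CD11c-negative highest and CD11c-positive lowest. Ftl1 was 1.14-fold higher in MC4R-KO CD11c-negative cells than in wildtype (adjusted p = 0.00033), a direction that turned to -0.02 with quantile normalization. It was 1.35-fold lower in CD11c-positive than in CD11c-negative cells (-0.44 ± 0.038, adjusted p = 2.34e-07, or -0.14 with quantile normalization) and 1.19-fold lower than in wildtype (adjusted p = 2.65e-05).

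The windows before the ferritin starts are shown side by side because the chains build a shared shell. The Ftl1 window lies at chr7:45459887-45460136 on the - strand and the window of the downstream Fth1 start at chr19:9982396-9982645 on the + strand, and capitals mark the CCAAT box, here on the opposite strand as ATTGG.
Ftl1: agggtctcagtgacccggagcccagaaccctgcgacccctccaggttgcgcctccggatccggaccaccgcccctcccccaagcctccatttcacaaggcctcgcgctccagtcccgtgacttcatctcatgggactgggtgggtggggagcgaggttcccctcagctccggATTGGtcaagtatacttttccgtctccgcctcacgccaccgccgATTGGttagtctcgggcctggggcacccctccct
Fth1: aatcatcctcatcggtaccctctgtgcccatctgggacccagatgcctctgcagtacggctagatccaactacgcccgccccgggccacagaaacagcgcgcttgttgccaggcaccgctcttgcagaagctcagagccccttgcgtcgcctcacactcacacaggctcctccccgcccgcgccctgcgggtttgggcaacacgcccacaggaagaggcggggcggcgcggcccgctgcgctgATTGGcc
The Ftl1 window held the box at 78 and 34 bases before the start and the Fth1 window at 7 bases before it. Neither held the antioxidant core, and GC content was 65.2% and 66.8%. The window of the upstream Fth1 start, not shown, had 34.8% GC and no CCAAT match.

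The groups fell in several orders. Slc40a1, Hmox1 and Blvrb fell from wildtype to MC4R-KO CD11c-negative and again to CD11c-positive cells, and Blvra rose at both steps. Slc48a1, Tfrc, Slc11a2 and Slc11a1 differed between wildtype and both MC4R-KO groups, and did not pass between the MC4R-KO groups, although Tfrc and Slc11a2 passed there with slide as a block. Fth1 was highest in MC4R-KO CD11c-negative cells, with the outer groups not differing beyond their spread. Ftl1 was also highest there and had its lowest level in CD11c-positive cells. The highest position of both ferritin genes depended on the scaling of the arrays.

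The differences of Ftl1, Fth1 and Slc11a1 changed with the scaling of the arrays. Before scaling, the Ftl1 signal covered 276700 to 333700 units in wildtype, 278000 to 335900 in MC4R-KO CD11c-negative and 270400 to 339100 in CD11c-positive samples, which overlap. The 75th percentile by which they are divided was 399.3 to 444.6, 358.6 to 403.6 and 477.6 to 562.4 units in the same order. The Fth1 signal was 254900 to 281700, 282800 to 317600 and 305900 to 362600 units. Quantile normalization, which forces the same distribution on every array, moved the median difference of all genes from 0.13 to 0.00 for MC4R-KO CD11c-negative cells against wildtype and from 0.16 to 0.04 for CD11c-positive cells against wildtype. The share of called genes that were higher went from 62.9% to 48.4% and from 66.2% to 53.6%. Slc11a1 went from 0.17 to -0.29 in the first of these comparisons (adjusted p = 7.99e-09) and from 0.18 to -0.20 in the other (adjusted p = 5.04e-07). Set against the median gene, Slc11a1 stood at 0.04 with the percentile scaling and at -0.29 with quantiles, and Ftl1 at 0.06 and -0.02. Falls became larger with quantiles: Slc48a1 went to -1.79, Slc40a1 to -1.52, Hmox1 to -1.22 and Blvrb to -0.59 in MC4R-KO CD11c-negative cells against wildtype. Blvra went to 0.46 in that comparison and stayed above the threshold.

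**Figure D2:**
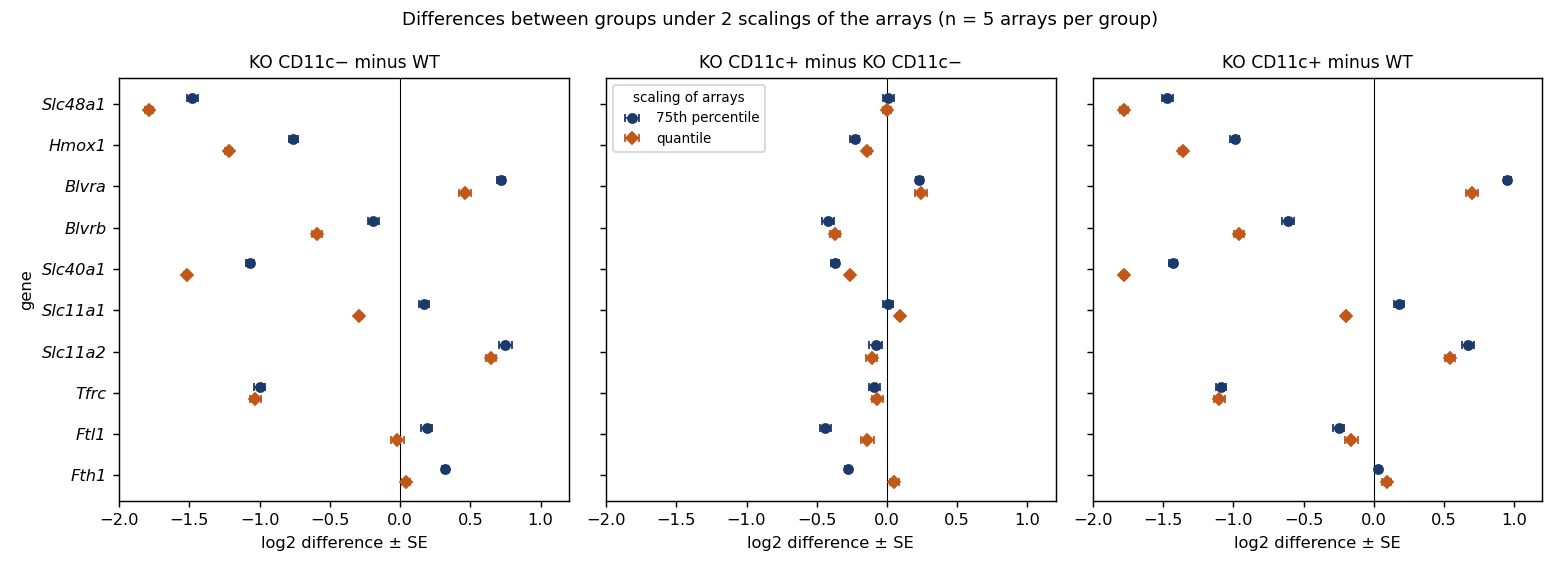
Log2 differences ± SE (x axis) of the 10 genes (rows) in the 3 comparisons, n = 5 arrays a group, after scaling to the 75th percentile (circles) and after quantile normalization (diamonds). Slc48a1, Hmox1, Slc40a1, Tfrc, Blvra and Slc11a2 keep their side of 0 against wildtype under both scalings, while Slc11a1 changes side against wildtype and Ftl1 moves from 0.19 to -0.02 in CD11c-negative cells.

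The arrays lay on 2 slides, each with arrays of all groups: slide 1 held 3 wildtype, 3 MC4R-KO CD11c-negative and 2 CD11c-positive arrays and slide 2 held 2, 2 and 3. Over the 30 differences of the 10 genes, all 25 that passed also passed on slide 1 alone, on slide 2 alone and with slide as a block. With the block 2 more passed between the MC4R-KO groups, where 7 of the 10 genes were then lower: Tfrc with -0.10 (adjusted p = 0.00548) and Slc11a2 with -0.10 (adjusted p = 0.0207). Of all 13390 genes, 3971 were lower there with the block and 3108 without it. Tfrc also passed on slide 1 alone with -0.13 (adjusted p = 0.0492). The largest change of a difference was 0.04 on slide 1 alone, 0.05 on slide 2 alone and 0.02 with the block. For Slc40a1 the difference between MC4R-KO CD11c-negative cells and wildtype was -1.07 on slide 1 and -1.07 on slide 2. For Slc48a1 it was -1.47 and -1.50, and for Hmox1 -0.78 and -0.72.

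Of the 10 genes, 6 had 1 probe, 3 had 2 and Tfrc had 3, in all 15 probes of which 14 were well above background often enough to be kept. The brightest probe stood for its gene. The second probes of Hmox1, Blvra, Slc11a2 and Tfrc gave -0.76, 0.66, 0.69 and -1.06 for MC4R-KO CD11c-negative cells against wildtype, on the same side as the brightest probes and each past the threshold. Between the MC4R-KO groups the probes of Blvra gave 0.23 and 0.24, both passing, while those of the other 3 genes parted. The second Hmox1 probe gave -0.12 ± 0.057 (adjusted p = 0.101), where the brightest gave -0.23. The second Slc11a2 probe gave 0.20 ± 0.058 (adjusted p = 0.0123), where the brightest gave -0.08 and did not pass. The second Tfrc probe gave -0.33 ± 0.068 (adjusted p = 0.00119), where the brightest, the mean of 10 spots with a within-array SD of 0.0444 to 0.0985, gave -0.09 and did not pass. Adjusted p-values in these sentences are over all kept probes. The remaining Tfrc probe was well above background on 2 wildtype arrays and on no MC4R-KO array.

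**Figure D3:**
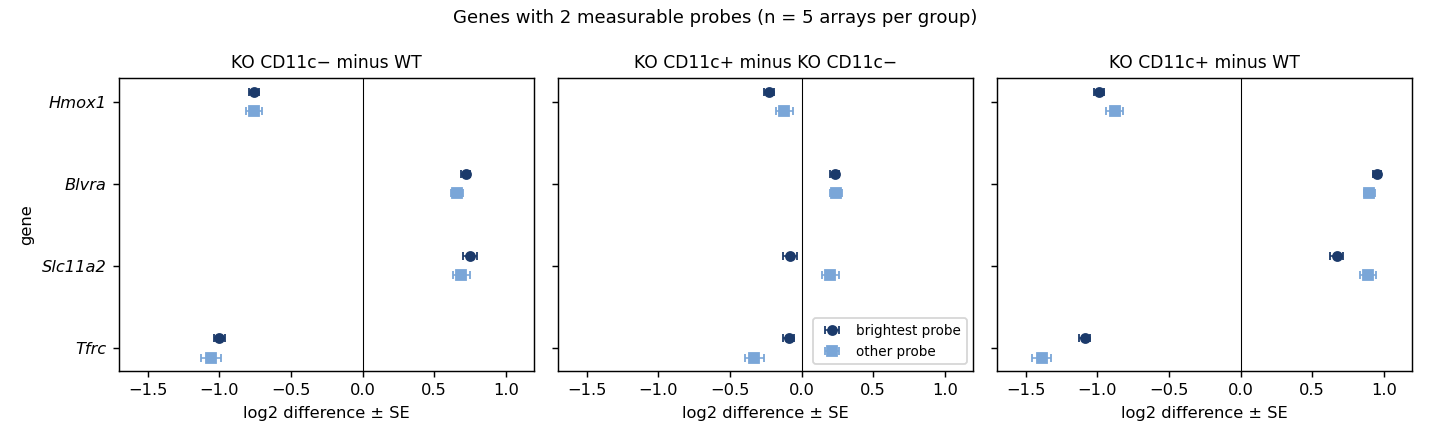
Log2 differences ± SE (x axis) in the 3 comparisons for the 4 genes with 2 kept probes (rows), brightest probe as circles and the other probe as squares, n = 5 arrays a group. Probes agree in side against wildtype, and between the MC4R-KO groups they differ in side for Slc11a2.

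Among other genes of haem uptake and export the largest change was that of Cd163, the macrophage receptor for haemoglobin bound to haptoglobin. Cd163 ranged from 2.41 to 2.51 in wildtype, -2.47 to -2.37 in MC4R-KO CD11c-negative and -3.41 to -3.12 in CD11c-positive samples. It fell by 4.88 ± 0.049 (29.4-fold, adjusted p = 4.1e-18) and, between the MC4R-KO groups, by 0.81 ± 0.049 (adjusted p = 6.01e-09). With normexp background correction the falls were 3.89 and 0.50, and Cd163 was well above background on 4 of the 5 CD11c-positive arrays. Of the 9 of 10 listed genes that could be tested, 4 rose, 3 fell and 2 did not pass in MC4R-KO CD11c-negative cells against wildtype, with 2 rising and 6 falling under quantile normalization. Slc46a1, a folate carrier that also takes up haem, fell by 0.44 (adjusted p = 4.75e-08), and Pgrmc1, a haem-binding membrane protein, rose by 0.60 ± 0.18 (adjusted p = 0.00657), which became 0.37 with quantile normalization (adjusted p = 0.0795) and also 0.37 without wildtype replicate 2 (adjusted p = 4.02e-07), and which did not pass on slide 1 alone (adjusted p = 0.06). In CD11c-positive against CD11c-negative cells 1 gene rose, Flvcr1, described as a haem exporter, by 0.19 (adjusted p = 0.00347), and 2 fell. Against wildtype the CD11c-positive cells had 4 higher and 4 lower. The list medians were -0.01, -0.01 and 0.18. They are in the order MC4R-KO CD11c-negative to wildtype, between the MC4R-KO groups, and CD11c-positive to wildtype. This order is kept for the lists that follow. In the same order 48.3%, 29.9% and 51.4% of all genes rose and 28.5%, 23.2% and 26.3% fell. With quantile normalization 4811, 4347 and 5389 of all 13390 genes rose, and 5119, 3006 and 4660 fell. The medians of all genes were 0.13, 0.01 and 0.16.

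Among the genes of haem synthesis, Alas1 rose from wildtype to MC4R-KO CD11c-negative and again to CD11c-positive cells. Alas1, the enzyme that sets the rate of haem synthesis outside the red cell line, ranged from 3.80 to 4.04 in wildtype, 5.33 to 5.57 in MC4R-KO CD11c-negative and 5.76 to 5.94 in CD11c-positive samples, with no overlap. It rose by 1.47 ± 0.057 (2.76-fold, adjusted p = 8.43e-12) and by a further 0.40 ± 0.057 (adjusted p = 3.63e-05), and these rises were 1.00 and 0.22 when the mean of its probes was used. Cpox, a late enzyme, was 0.25 higher in CD11c-positive than in CD11c-negative cells (adjusted p = 1.77e-06). Alas2, the form of the red cell line, was well above background on 5 wildtype, 1 MC4R-KO CD11c-negative and 0 CD11c-positive arrays, and was at least 2.70-fold and at least 3.57-fold lower than in wildtype. Of the 9 listed genes, 5, 5 and 7 rose and 3, 1 and 2 fell in the 3 comparisons, with medians of 0.07, 0.13 and 0.24. Of all genes 48.3%, 29.9% and 51.4% rose and 28.5%, 23.2% and 26.3% fell, with medians of 0.13, 0.01 and 0.16. Under quantile normalization 3, 5 and 4 of the listed genes rose and 4, 2 and 3 fell. Among all 13390 genes that setting gave 4811, 4347 and 5389 rising and 5119, 3006 and 4660 falling.

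Genes that sense iron or handle ferritin changed by less than 2-fold. Fbxl5, the iron-binding subunit of the ligase that degrades iron regulatory protein 2, was 1.74-fold higher in MC4R-KO CD11c-negative cells than in wildtype (0.80 ± 0.033, adjusted p = 1.68e-11) and then fell by 0.22 ± 0.033 in CD11c-positive against CD11c-negative cells (adjusted p = 5.67e-05). Pcbp2, an iron chaperone, rose by 0.55 (adjusted p = 1.69e-11), or 0.12 with quantile normalization. Its relative Pcbp1, which delivers iron to ferritin, had 0.28 (adjusted p = 5.39e-08) with the percentile scaling and -0.18 with quantile normalization. Ncoa4, the receptor that carries ferritin to autophagy, was 0.10 higher in CD11c-positive than in CD11c-negative cells (adjusted p = 0.0133, not passing on either slide alone), and Herc2, a ligase that acts on it, had -0.29 (adjusted p = 0.00804). All 7 listed genes were tested: 4, 2 and 4 rose and 1, 2 and 1 fell, with 3, 3 and 4 rising and 3, 2 and 2 falling under quantile normalization. Among all 13390 genes quantile normalization gave 4811, 4347 and 5389 rising and 5119, 3006 and 4660 falling. The medians were 0.21, 0.03 and 0.24, beside 0.13, 0.01 and 0.16 for all genes. Shares of all genes were 48.3%, 29.9% and 51.4% rising and 28.5%, 23.2% and 26.3% falling.

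Most tested genes of the hepcidin and ferroportin list were lower in CD11c-positive cells. Of the 8 of 11 listed genes that could be tested, 1, 0 and 0 rose and 3, 6 and 5 fell, with medians of -0.11, -0.41 and -0.36, and quantile normalization gave 1, 0 and 0 rising and 3, 5 and 5 falling. In the same comparisons 4, 2 and 3 did not pass, and 28.5%, 23.2% and 26.3% of all genes fell. With quantile normalization 4811, 4347 and 5389 of all 13390 genes rose and 5119, 3006 and 4660 fell. Bmp6, a signal of liver endothelium that induces hepcidin in hepatocytes, fell by 1.67 ± 0.080 (adjusted p = 9.44e-11) and by a further 0.60 ± 0.080 (adjusted p = 2.1e-05). The 10 listed endothelial markers summed to 328 to 358 in wildtype, 218 to 229 in MC4R-KO CD11c-negative and 152 to 156 in CD11c-positive samples, in units of the 75th percentile, and their part in the Bmp6 result was not tested. The copper oxidases that load iron on transferrin also changed. Cp was 0.38 higher in MC4R-KO CD11c-negative cells than in wildtype (adjusted p = 7.44e-07) and fell by 0.81 in CD11c-positive against CD11c-negative cells (adjusted p = 6.76e-10), and Heph fell by 0.45 (adjusted p = 0.00418, but 0.225 on slide 2 alone) and 0.61 (adjusted p = 0.000793). Hamp, the hepcidin gene, was a dim signal with means of -2.24, -2.36 and -3.20. It did not pass in CD11c-negative cells against wildtype (adjusted p = 0.5, but 0.0234 without CD11c-negative replicate 2) and fell by 0.84 ± 0.16 in CD11c-positive against CD11c-negative cells (adjusted p = 0.000525).

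Among other iron carriers Lcn2, which binds bacterial siderophores, had the largest rise. It was 22.5-fold higher in MC4R-KO CD11c-negative cells than in wildtype (4.49 ± 0.044, adjusted p = 3.11e-18) and 3.75-fold lower in CD11c-positive than in CD11c-negative cells (adjusted p = 1.52e-13). Lcn2 is a neutrophil granule gene too and is itself 1 of the 12 listed neutrophil markers. Of these 12, 11 were at least 2-fold higher in MC4R-KO CD11c-negative cells than in wildtype, where 48.3% of all genes rose at any fold. The neutrophil list, Lcn2 included, summed to 421 to 440 in wildtype, 1670 to 1820 in MC4R-KO CD11c-negative and 671 to 705 in CD11c-positive samples. The part of neutrophils in the Lcn2 result was not tested. Slc39a8, a zinc and iron importer, fell by 1.08 from wildtype to CD11c-positive cells (adjusted p = 2.19e-14), while its relative Slc39a14 was 0.42 higher in CD11c-positive than in CD11c-negative cells (adjusted p = 1.88e-06). Of the endosomal metal reductases, Steap2 was at least 2.40-fold higher in MC4R-KO CD11c-negative and at least 2.34-fold higher in CD11c-positive than in wildtype samples, where no array was well above background. Steap4, well above background on 1 wildtype, 4 CD11c-negative and 2 CD11c-positive arrays, was at least 1.56-fold higher in CD11c-negative than in wildtype and at least 1.43-fold higher than in CD11c-positive samples. Of 11 of 13 listed genes tested, 8, 4 and 6 rose and 2, 4 and 2 fell. Under quantile normalization 6, 4 and 5 rose and 4, 5 and 4 fell. Among all 13390 genes that setting gave 4811, 4347 and 5389 rising and 5119, 3006 and 4660 falling. The list medians were 0.31, -0.03 and 0.25, beside 0.13, 0.01 and 0.16 for all genes. Shares of all genes were 48.3%, 29.9% and 51.4% rising and 28.5%, 23.2% and 26.3% falling.

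Factors known to act on the 10 genes moved in both directions. Spic, the factor that drives Slc40a1 in red pulp macrophages of the spleen, had means of 5.31, 4.78 and 4.36 and fell by 0.53 ± 0.048 (adjusted p = 1.26e-07) and by a further 0.43 ± 0.048 (adjusted p = 3.78e-06). Bach1, the haem-binding repressor of Hmox1, had means of 2.41, 2.78 and 3.06 and rose by 0.36 ± 0.051 (adjusted p = 1.27e-05) and 0.29 ± 0.051 (adjusted p = 0.000275). Nfe2l2, which encodes the activator NRF2, rose by 0.54 ± 0.029 (adjusted p = 3.42e-10), or 0.17 with quantile normalization, and had 0.02 between the MC4R-KO groups (adjusted p = 0.56). Il6, a cytokine that induces hepcidin, fell by 1.70 (adjusted p = 2.21e-14) and 1.27 (adjusted p = 2.64e-12). Il10, a cytokine known to induce Hmox1, rose by 1.97 (adjusted p = 2.57e-13) and then fell by 0.81 (adjusted p = 2.31e-08). All 13 listed factors were tested: 7, 2 and 6 rose and 4, 6 and 6 fell. Under quantile normalization 4, 3 and 5 rose and 6, 7 and 7 fell. Among all 13390 genes that setting gave 4811, 4347 and 5389 rising and 5119, 3006 and 4660 falling. The list medians were 0.13, -0.11 and 0.04, beside 0.13, 0.01 and 0.16 for all genes. Shares of all genes were 48.3%, 29.9% and 51.4% rising and 28.5%, 23.2% and 26.3% falling.

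The other targets of NRF2 did not share a direction. Osgin1, which slows growth under oxidative stress, fell by 0.86 (adjusted p = 1.91e-11) and by 0.31 (adjusted p = 4.31e-06). Srxn1, which repairs oxidised peroxiredoxins, rose by 0.41 (adjusted p = 2.76e-06) and 0.33 (adjusted p = 6.15e-05). Prdx1, a peroxiredoxin, was 0.47 higher in MC4R-KO CD11c-negative cells than in wildtype (adjusted p = 3.23e-09) with the percentile scaling and 0.01 with quantile normalization (adjusted p = 0.77). Slc7a11, the cystine importer, was well above background on 4 CD11c-positive arrays and on none of the other groups, at least 1.16-fold above CD11c-negative and at least 1.22-fold above wildtype samples. Neither Slc7a11 difference passed with normexp background correction (adjusted p = 0.156 and 0.0872) or on slide 2 alone (0.0505 and 0.0746). Of 9 of 10 listed genes tested, 3, 3 and 3 rose and 4, 3 and 3 fell. Under quantile normalization 1, 4 and 3 rose and 6, 3 and 6 fell. Among all 13390 genes that setting gave 4811, 4347 and 5389 rising and 5119, 3006 and 4660 falling. The list medians were -0.15, 0.00 and 0.03, beside 0.13, 0.01 and 0.16 for all genes. Shares of all genes were 48.3%, 29.9% and 51.4% rising and 28.5%, 23.2% and 26.3% falling. Putting Alas2, Steap2, Steap4 and Slc7a11 at the bounds given above changed no list median.

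**Figure D4:**
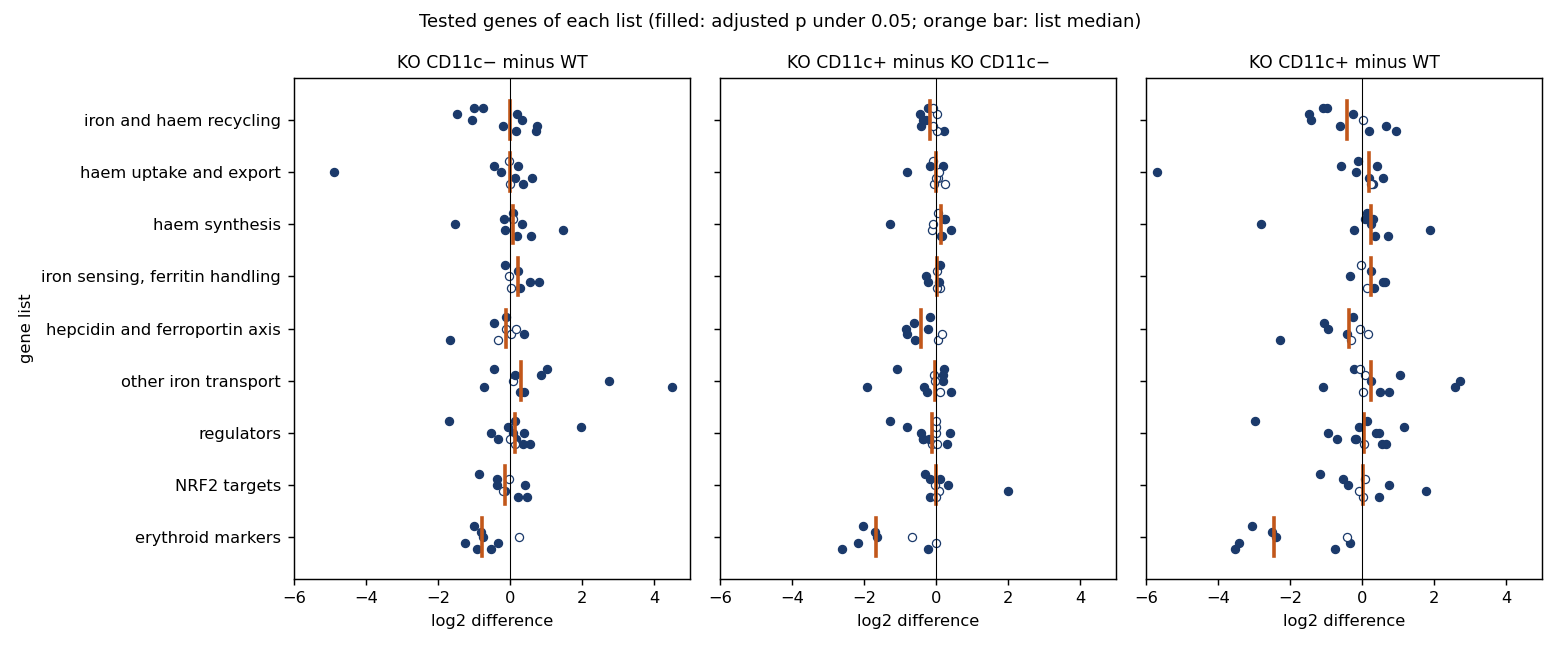
Log2 difference (x axis) of each tested gene of the 10-gene set, the 7 pathway lists and the erythroid marker list (rows) in the 3 comparisons, filled where the adjusted p is under 0.05, with the list median as an orange bar. Cd163 stands at -4.88 and -5.69 against wildtype, the erythroid medians are -0.77, -1.67 and -2.44, and Alas2, Steap2, Steap4 and Slc7a11 are drawn at fitted values although a group was mostly not well above background.

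Most tested markers of red cells and their precursors were lower in the MC4R-KO groups. Of the 15 listed erythroid genes 8 were tested, and 7, 6 and 7 of them fell while 0 rose, with medians of -0.77, -1.67 and -2.44. Of all genes 28.5%, 23.2% and 26.3% fell. The summed level of the 8 erythroid genes was 38.2 to 41 in wildtype, 22.4 to 23.9 in MC4R-KO CD11c-negative and 9.81 to 10 in CD11c-positive samples. Hba-a2, an alpha globin gene whose probe may also take up its near copy Hba-a1, ranged from 4.46 to 4.60, 3.67 to 3.80 and 2.01 to 2.07. Epor, the erythropoietin receptor, fell by 0.53 (adjusted p = 1.29e-09) and 0.23 (adjusted p = 3.7e-05). Klf1, Gata1, Rhag and Epb42 had probes that were not well above background often enough to be tested in any group. The part of red cell RNA in the differences of Slc48a1, Hmox1, Slc40a1 and Tfrc was not tested.

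Cell type markers also differed between the groups, in various directions. The 8 Kupffer cell markers summed to 2630 to 2880 in wildtype, 1680 to 1850 in MC4R-KO CD11c-negative and 1310 to 1430 in CD11c-positive samples, and 1, 0 and 0 of them rose while 6, 8 and 7 fell. The 8 tested general macrophage markers summed to 1880 to 2080, 2370 to 2590 and 1910 to 2080, and 6, 1 and 3 rose while 1, 6 and 3 fell. Shares of all genes were 48.3%, 29.9% and 51.4% rising and 28.5%, 23.2% and 26.3% falling. For monocyte markers the sums were 182 to 203, 393 to 445 and 327 to 346, and for hepatocyte markers 345 to 370, 394 to 428 and 311 to 334. Dendritic cell markers summed to 35.6 to 38.2, 20.7 to 22.9 and 46 to 49.6, lymphoid markers to 72.6 to 79.4, 54.5 to 59.7 and 38.5 to 41.1, and the 13 proliferation markers to 82 to 85.8, 114 to 121 and 151 to 157. All 8 Kupffer, all 8 tested macrophage, all 12 neutrophil, all 12 hepatocyte and all 10 endothelial markers were well above background on all arrays of each group. The part of each of these cell types in the differences of the 10 genes was not tested.

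The genes whose arrays ran most like each of the 10 were found by the root mean square difference of values centred on their own mean over the 15 arrays, among 12930 named genes. Col4a1, a basement membrane collagen, was nearest to Hmox1 at 0.0405 log2 units. Its differences were -0.77, -0.20 and -0.96 in the order used for the lists, where Hmox1 had -0.76, -0.23 and -0.99. Pmp22 was nearest to Slc40a1 at 0.0598 and Abcc10 nearest to Slc48a1 at 0.0575. Rgl3 (0.0458) and the endothelial scavenger receptor gene Stab2 (0.0556) were nearest to Tfrc, Churc1 (0.041) to Slc11a2 and Ier5 (0.0275) to Slc11a1. Wdr1 (0.0422) was nearest to Blvra, Epsti1 (0.047) to Blvrb, Ncbp3 (0.0681) to Ftl1 and Dynlt1c (0.0255) to Fth1, which was followed by B2m (0.0282). The likeness is mostly that of 3 group means and is given as a description.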

How the data were processed

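RNA of 15 samples of sorted mouse liver macrophages was labelled with Cy3, 0.1 ug each, and hybridised to one-colour Agilent arrays, per the labels. Spot intensity was extracted by the authors with Agilent Feature Extraction 10.7.3.1, per the file headers, and the processed signal is background-subtracted. The deposited table of log2 values holds the same arrays scaled to the 75th percentile and then set relative to each probe's wildtype median (values rebuilt that way differed by 0.00146 at the median), and was used as an alternative.

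Of 62976 spots, 3671 control spots and 113 to 190 outlier-flagged spots per array were left out, and no spot was saturated. Log2 was taken of each spot, the 75th percentile of the array was subtracted, and the spots of a probe were then averaged. The RefSeq accessions named 26582 of 55681 probes for 20145 genes. Probes well above background on at least 4 of the 5 arrays of a group were kept, and the brightest kept probe stood for its gene, which left 13390 genes, of which 12 lacked a value on some array. Group means of all 15 arrays were fitted with limma 3.58.1 in R 4.3.3 (lmFit and eBayes, no covariates, two-sided, Benjamini-Hochberg over all genes tested, threshold 0.05), checked on simulated data. A probe that was not well above background on most arrays of a group was given as a lower bound of fold against the lowest signal well above background. The number of arrays limits the precision.

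The genes described and the pathway and marker lists were chosen with earlier results of these data known. Apart from the 10 genes, the text names the pathway genes that changed most in each list and comparison and a few known regulators. The alternatives were 13 other settings and the omission of each of the 15 arrays.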

Additional observations from a re-analysis of the deposited data

Results flagged for a closer look

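In 30 groups of 5 arrays (10 genes in 3 groups), the highest or lowest array stood apart from the rest in 2, by a gap of more than 0.71 of the range of the group (Dixon's 95% critical value). Chance gives about 1 such group in 20. Ftl1 read 9.552 on wildtype array 2, where the next highest array read 9.464 and the lowest 9.43, a gap of 0.723 of the range. Without an array, the Ftl1 difference of MC4R-KO CD11c-negative cells against wildtype lay between 0.16 and 0.21. Fth1 read 9.608 on MC4R-KO CD11c-negative array 1, where the next lowest array read 9.62 and the highest 9.623, a gap of 0.771 of a narrow range. Without an array, the Fth1 difference of these cells against wildtype lay between 0.31 and 0.32.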

How the results depend on the processing

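Of the 840 values of the 30 member differences under 28 alternatives, 821 stayed on their side of the threshold with no passing difference turned round. Of the 28, quantile normalization alone turned round differences that had passed, and the cause was not tested. Small differences that had not passed changed sign under other settings too, such as Slc11a2 between the MC4R-KO groups, 0.06 with the mean of all kept probes. With quantile normalization, 2, 2 and 3 of the 10 genes passed as higher and 6, 5 and 7 as lower, in the order used for the lists. Of all 13390 genes 4811, 4347 and 5389 passed as higher with it and 5119, 3006 and 4660 as lower. In CD11c-negative cells against wildtype quantile normalization gave -0.29 for Slc11a1, -0.02 for Ftl1, -0.18 for Pcbp1 and -0.06 for Adgre1. Between the MC4R-KO groups it gave 0.05 for Fth1, and in CD11c-positive cells against wildtype -0.20 for Slc11a1, -0.03 for Cpox and -0.06 for Pcbp1. For Prdx1 between the MC4R-KO groups it gave 0.07, which passed, where the percentile scaling gave 0.00, which had not. Omitting single arrays left 10 of the 10 genes passing in the first comparison, 6 to 7 in CD11c-positive against CD11c-negative cells and 9 in CD11c-positive cells against wildtype. Of all 13390 genes 10074 to 10309, 6675 to 7153 and 10136 to 10500 then passed.

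The labels give same-numbered samples no shared source, but 13 of the 15 same-numbered pairs lay on the same slide (r 0.058 to 0.373) and the other 2 did not (-0.198 and -0.171). Their deviations correlated above 0.1 in 11 of 15 pairs, and 9 of 15 arrays correlated best with their own number. With the replicate block, Tfrc between the MC4R-KO groups gave -0.09 and passed (adjusted p = 0.034). With slide added it gave -0.12 and Slc11a2 gave -0.11, both passing.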
